A study of Mus musculus with 6 samples.

Results

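Sox17, Sox18, Kdr, Flt1, Tek, Tie1, Pecam1, Cldn5, Eng and Emcn are 10 genes that mark the endothelium, the cell layer lining blood vessels. They were followed in poly-adenylated RNA from the ventral lumbar cord of C57BL/6 mice aged 5 weeks, in 3 wild-type (WT) and 3 Gde2KO libraries. Gde2KO mice lack Gdpd5, the gene of GDE2, an enzyme at the cell surface that cuts glycosylphosphatidylinositol anchors, and the series asks how neuronal GDE2 bears on Wnt signalling and oligodendrocyte maturation. The labels name no other allele or agent and no sex, and they do not say whether each library came from a separate animal, so the spread between libraries of a genotype may be partly technical. Members were found as the assembled transcripts that overlap an exon of the named gene on its strand in the mouse annotation. All 10 genes passed the filter on low values, out of 12894 genes tested. They were represented by 127 assembled transcripts over the 6 libraries, 18 to 23 in each. The genes were chosen by their measured difference between genotypes in these same libraries, so their WT and Gde2KO levels are a description and not evidence for a difference.

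Endothelial cells read the vascular growth factor VEGF mainly through the receptor kinase KDR (VEGFR2), while FLT1 (VEGFR1) binds the same ligand tightly and, as a secreted form, keeps it from KDR. TEK (TIE2) receives the angiopoietins and works with its relative TIE1 to keep vessels stable. SOX17 and SOX18 are SRY-related transcription factors of the SOXF family, which act in overlapping ways in vessel growth and arterial identity. In the central nervous system these vessels also form the blood-brain and blood-spinal cord barriers, in which the tight junction protein claudin-5 (Cldn5) seals neighbouring cells.

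The files give FPKM, fragments scaled to transcript length and library size. The level of a gene is the FPKM summed over its transcripts at each counted base, averaged over those bases and scaled between libraries. It is a value per length, and comparisons between genes also depend on which bases of each gene were counted. Libraries held 31899 to 33791 assembled transcripts, with relative depths of 0.910 to 1.14. The assembly of Gde2KO replicate 3 was unlike the others, since 56.2% of its spliced transcripts matched an annotated chain of introns and 49.3% to 49.8% did elsewhere. Gde2KO replicate 1 differed in sex-linked genes, with Ddx3y of the Y chromosome at 21.5 FPKM and Xist listed at 0, while the other 5 libraries had Ddx3y listed at 0 and Xist at 5.28 to 14.96 FPKM. Gdpd5, the deleted gene, had levels of 5.41, 6.58 and 5.99 FPKM in WT and 1.252, 1.20 and 0.952 FPKM in Gde2KO. It fell to 0.202 of the WT level, with an adjusted p of 0.0053 in limma, so the genotype labels match the libraries. The tissue label was met by Chat, the enzyme of cholinergic neurons, at 16.8 to 23.8 FPKM and by the myelin gene Mag at 449 to 523 FPKM.

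Among the 10 genes, 8 had a lower mean log2 level in Gde2KO and 2, Sox17 and Sox18, a higher one. The 3 Gde2KO libraries lay below all 3 WT libraries for Kdr, Eng and Emcn and above all 3 for Sox17 and Sox18. Over all tested genes, 5.79% lay below without overlap and 5.06% above. Differences are given as Gde2KO minus WT on the scale of log2(FPKM + 0.1). Their median was -0.20 over the 10 genes and -0.25 over the 8 other than Sox17 and Sox18, beside 0.00 over all tested genes, of which 49.9% were lower. In the limma fit across all genes 15 passed an adjusted p of 0.05, which is 0.116%, and 0 of the 10 were among them, with adjusted p from 0.243 to 0.887. At an unadjusted p under 0.05 there were 4 of the 10, and 3.91% of all genes. Since these values chose the genes, nothing is read from the counts. In bulk tissue, fewer endothelial cells and less RNA per cell cannot be told apart.

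**Figure D1:**
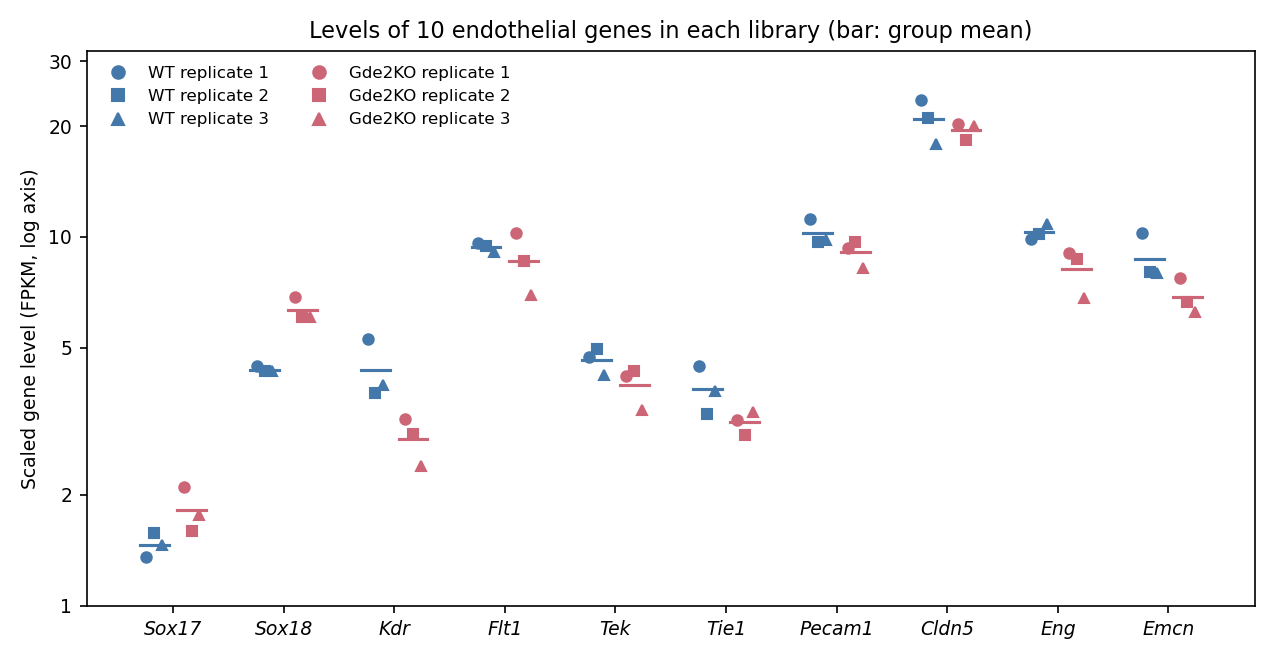
Level of each of the 10 genes in the 6 libraries, in scaled FPKM, with 1 point per library and a bar at the mean of the 3 libraries of a genotype. All 3 Gde2KO points of Sox18 (6.05 to 6.85 FPKM) sit above the WT points (4.32 to 4.46 FPKM), and those of Kdr (2.39 to 3.20 FPKM) sit below (3.77 to 5.30 FPKM).

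Levels in WT spanned from Cldn5 to Sox17. Cldn5, at 20.8 ± 2.86 FPKM (SD, n = 3), stood at the 75.0 percentile of tested genes by mean level. Below it came Eng at 10.3 ± 0.491, Pecam1 at 10.2 ± 0.818, Flt1 at 9.40 ± 0.266 and Emcn at 8.74 ± 1.304 FPKM. A lower tier held Tek at 4.64 ± 0.376, Sox18 at 4.37 ± 0.0807, Kdr at 4.35 ± 0.836 and Tie1 at 3.87 ± 0.579 FPKM. Sox17 was lowest at 1.46 ± 0.112 FPKM, at the 9.02 percentile. Between neighbours in this order, the WT libraries of Cldn5 and Eng did not overlap, nor did those of Pecam1 and Flt1, Emcn and Tek, or Tie1 and Sox17. The other neighbours overlapped. This order depends on the bases counted for each gene. In WT the first 13 exons of Flt1 had a mean of 15.85 FPKM, and the intronic stretch of its secreted form had 4.01 FPKM. Exon 8 of Eng had 14.7, 13.1 and 10.8 FPKM in WT. In Gde2KO, Sox18, at 6.32 ± 0.463 FPKM, came next below Emcn at 6.89 ± 0.750 FPKM with overlapping libraries, and lay above Tek at 3.98 ± 0.504 FPKM without overlap. Kdr, at 2.84 ± 0.413 FPKM, was below Tie1 at 3.15 ± 0.228 FPKM, again with overlap.

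Sox18 lies at chr2:181669836-181671640 on the minus strand of mm10. Its level was 4.46, 4.33 and 4.32 FPKM in WT and 6.85, 6.05 and 6.05 FPKM in Gde2KO. The groups did not overlap, and Gde2KO replicate 1 was the highest library. The fitted ratio was 1.43 (95% interval 1.27 to 1.63). It was assembled as a single transcript of 2 exons with the annotated intron chain in every library. Its deposited FPKM had confidence bounds of 3.77 to 5.12 over the WT libraries and 5.48 to 7.498 over the Gde2KO libraries. Those bounds are the authors', cover counting error within 1 library each and say nothing of the spread between libraries. Without Gde2KO replicate 1 the log2 difference was 0.46, and without Gde2KO replicate 3 it was 0.55, beside 0.52 with all libraries.

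Sox17 lies at chr1:4490931-4497354 on the minus strand. Its level was 1.35, 1.58 and 1.46 FPKM in WT and 2.098, 1.59 and 1.76 FPKM in Gde2KO, a ratio of 1.22 (95% interval 0.976 to 1.53). The groups were separated by the gap between WT replicate 2 at 1.577 and Gde2KO replicate 2 at 1.592 FPKM, and the interval includes no difference. Without Gde2KO replicate 1 the log2 difference was 0.19, beside 0.29 with all libraries, and with a pseudocount of 1 it was also 0.19. Its assemblies were the more uneven of the SOXF pair, with 1 to 4 transcripts per library. Transcripts that start at the downstream first exons made up 36.9%, 52.2% and 100% of the summed FPKM in WT and 72.3%, 82.3% and 100% in Gde2KO, so the ranges overlap widely. Sox7, the remaining SOXF gene, was below the level required for testing, at 0.660 to 0.748 FPKM in WT and 0.625 to 0.747 FPKM in Gde2KO.

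Within the 8 genes other than Sox17 and Sox18, the mean of the centred log2 levels was 0.27, 0.08 and 0.06 in WT and -0.02, -0.12 and -0.27 in Gde2KO. WT replicate 1 was the highest library and Gde2KO replicate 3 the lowest, and since all 8 genes were chosen with lower Gde2KO values in view, the order of the genotypes is given by the choice.

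Kdr, the main signalling receptor for VEGF, lies at chr5:75932827-75978458 on the minus strand. Its level was 5.30, 3.77 and 3.97 FPKM in WT and 3.20, 2.92 and 2.39 FPKM in Gde2KO. The groups did not overlap, WT replicate 1 was the highest, and the ratio was 0.663 (95% interval 0.495 to 0.888), the lowest of the 10 genes. In 5 libraries the gene was assembled as 1 transcript with the 30 annotated exons, and in Gde2KO replicate 1 as pieces of 14 and 16 exons. All 30 exons were lower in Gde2KO without overlap. Exons of 1 assembled transcript share its FPKM, so they are not separate measurements. When the FPKM of a gene's transcripts were simply added, the pieces of Gde2KO replicate 1 were counted on top of each other and the log2 difference was -0.24, beside -0.59.

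Flt1, the VEGF receptor that also has a secreted form, lies at chr5:147561604-147726011 on the minus strand. Its level was 9.65, 9.43 and 9.12 FPKM in WT and 10.3, 8.62 and 6.97 FPKM in Gde2KO. Gde2KO replicate 1 lay above the WT range and replicates 2 and 3 below it, and the ratio was 0.906 (95% interval 0.709 to 1.16). The log2 difference was 0.00 without Gde2KO replicate 3 and -0.28 without Gde2KO replicate 1, beside -0.14 with all libraries. Flt1 had 37 transcripts over the 6 libraries, 5 to 9 in each, the most of the 10 genes. The full-length chain of 30 exons was assembled whole only in Gde2KO replicates 1 and 3, so single transcripts of this gene cannot be compared across libraries.

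The secreted form does not splice after exon 13 but runs on into the intron, at chr5:147635159-147639224, while the full-length form joins exon 13 to exon 14 at chr5:147634377-147634523. The point at which they part is shown from the GENCODE vM21 transcripts, with the bases after the end of exon 13 in capitals.
Flt1 full-length: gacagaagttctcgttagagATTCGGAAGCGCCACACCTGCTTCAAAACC
Flt1 soluble: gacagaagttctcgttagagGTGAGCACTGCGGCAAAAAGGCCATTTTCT
The first 13 exons, held by both forms, had 15.5, 16.4 and 15.7 FPKM in WT and 16.9, 14.9 and 10.8 FPKM in Gde2KO. Exons 14 to 29, found in the full-length form, had 9.99, 9.07 and 8.49 FPKM in WT and 10.98, 8.08 and 7.44 FPKM in Gde2KO. In both stretches the groups overlapped. The intronic stretch of 4066 bases had 3.98, 3.78 and 4.28 FPKM in WT and 3.58, 3.29 and 2.86 FPKM in Gde2KO, or 4.01 ± 0.252 against 3.24 ± 0.358 (SD, n = 3), with no overlap. That average counts unassembled bases as 0, and 3175, 3201 and 3110 bases were assembled in WT and 3042, 2585 and 2744 in Gde2KO. Per assembled base the stretch had 5.099, 4.80 and 5.59 FPKM in WT and 4.78, 5.17 and 4.24 FPKM in Gde2KO, and the groups overlapped. Exons 14 to 29 stood at 64.6%, 55.4% and 54.1% of the level of the first 13 exons in WT and at 65.0%, 54.1% and 68.7% in Gde2KO, with overlap. Sequence of both forms was assembled in both genotypes. Unspliced precursor RNA, which also covers the intron, cannot be told apart from the secreted form here.

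**Figure D2:**
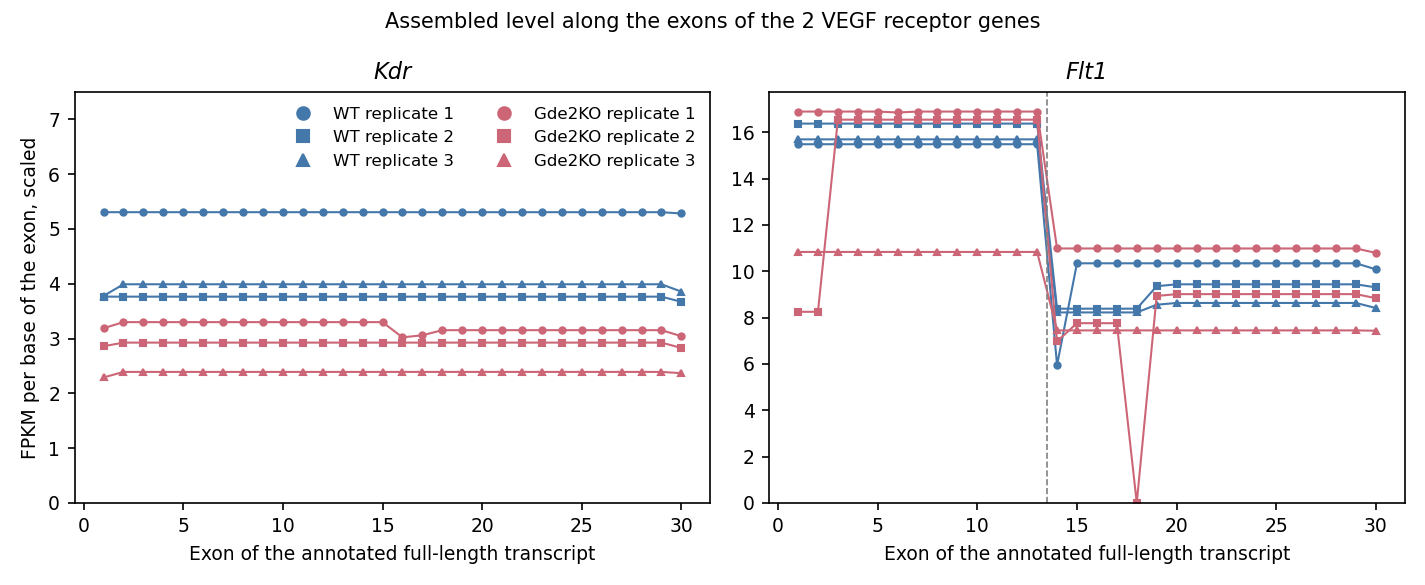
Scaled FPKM by exon, from the 5′ end, for the full-length transcripts of Kdr and Flt1, with 1 line per library. All 30 Kdr exons are lower in the Gde2KO libraries, while the Flt1 lines of the genotypes cross and step down after exon 13. Exon 18 of Flt1 is listed at 0 in Gde2KO replicate 2, whose assembly is broken there, and a dashed line marks the end of exon 13.

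Tek, the angiopoietin receptor, lies at chr4:94739289-94874976 on the plus strand. Its level was 4.73, 4.97 and 4.23 FPKM in WT and 4.20, 4.33 and 3.40 FPKM in Gde2KO. Gde2KO replicate 2 was above WT replicate 3, so the groups overlapped, and the ratio was 0.857 (95% interval 0.699 to 1.05). Without Gde2KO replicate 3 the log2 difference was -0.12, beside -0.22. Its relative Tie1, at chr4:118471191-118490061 on the minus strand, had 4.47, 3.32 and 3.83 FPKM in WT and 3.18, 2.91 and 3.36 FPKM in Gde2KO. The groups overlapped between WT replicate 2 and Gde2KO replicate 3, with a ratio of 0.823 (95% interval 0.662 to 1.02). WT replicate 1 was the highest library for Tie1, and without it the log2 difference was -0.18, beside -0.28. In WT replicate 3 Tie1 was assembled as pieces of 5 and 18 exons, and with plain addition of transcripts the difference was -0.62.

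Tek and Eng share a feature that the choice of genes did not use, a junction at which 3 bases are kept or left out. In Tek the bases end the exon at chr4:94851723-94851877, and in Eng they open the exon at chr2:32657516-32657670. The junctions are printed from GENCODE vM21 transcripts with the 3 optional bases in capitals, because they are all that separates the forms at these sites.
Tek long: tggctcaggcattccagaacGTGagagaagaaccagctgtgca
Tek short: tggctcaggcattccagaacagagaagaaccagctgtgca
Eng long: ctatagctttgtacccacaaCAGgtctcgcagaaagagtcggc
Eng short: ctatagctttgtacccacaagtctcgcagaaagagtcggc
The long Tek form made up 56.8%, 64.1% and 69.5% of the gene's FPKM in WT and 81.3%, 63.6% and 72.8% in Gde2KO, or 63.5% ± 6.36 against 72.5% ± 8.87 (SD, n = 3). The groups overlapped. In Gde2KO replicate 1, the library with the highest share, the short form was assembled only as a piece of the gene. The long Eng form made up 76.2%, 68.3% and 85.9% in WT and 100%, 72.7% and 69.0% in Gde2KO, again with overlap. The short Eng form had no transcript in Gde2KO replicate 1. Shares of forms that differ by 3 bases rest on the few reads that cross the junction, and the read depth there is unknown.

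Eng encodes endoglin, a co-receptor for BMP and TGF-beta ligands, at chr2:32646595-32682669 on the plus strand. Its level was 9.87, 10.2 and 10.8 FPKM in WT and 9.07, 8.72 and 6.84 FPKM in Gde2KO. The groups did not overlap, and the ratio was 0.793 (95% interval 0.645 to 0.976). Its last exon was assembled to different lengths, 73, 421 and 1207 bases in WT and 415, 1172 and 1219 bases in Gde2KO, which enters the average over bases. On exon 8, inside the gene and assembled in all libraries, the values were 14.7, 13.1 and 10.8 FPKM in WT and 11.7, 8.73 and 6.84 FPKM in Gde2KO, and there the groups overlapped. Over bases assembled in all 6 libraries the log2 difference was -0.52, beside -0.33, and without Gde2KO replicate 3 it was -0.21.

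Emcn encodes endomucin, a sialoglycoprotein of venous and capillary endothelium, at chr3:137341067-137432185 on the plus strand. Its level was 10.3, 8.01 and 7.96 FPKM in WT and 7.72, 6.68 and 6.26 FPKM in Gde2KO. The groups did not overlap, by a narrow gap between WT replicate 3 and Gde2KO replicate 1, and the ratio was 0.793 (95% interval 0.631 to 0.996). WT replicate 1 was the highest library, and without it the log2 difference was -0.22, beside -0.33. In WT replicates 2 and 3 the gene was assembled as pieces of 7 and 5 exons, and with plain addition of transcripts the difference was -1.07.

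Pecam1 (CD31), an adhesion molecule of endothelial junctions that platelets and leukocytes also carry, lies at chr11:106654217-106750628 on the minus strand. Its level was 11.2, 9.69 and 9.84 FPKM in WT and 9.32, 9.72 and 8.23 FPKM in Gde2KO. The groups overlapped between WT replicate 2 and Gde2KO replicate 2, with a ratio of 0.888 (95% interval 0.756 to 1.04). The log2 difference was -0.17, and -0.11 without WT replicate 1 or -0.10 without Gde2KO replicate 3. Pecam1 is known for alternative splicing of the exons that encode its cytoplasmic tail, and 2 short exons near its 3′ end varied here, of 57 bases at chr11:106671742-106671798 and of 23 bases at chr11:106662002-106662024. An exon of 54 bases at chr11:106681032-106681085 varied too, held by 79.5%, 84.4% and 100% of the gene's FPKM in WT and by 76.3%, 100% and 79.7% in Gde2KO, with overlap. An exon of 166 bases was found in 1 transcript of WT replicate 3 alone. The 57-base and 23-base exons are shown from a GENCODE vM21 transcript that holds both, with the exon in capitals and 10 flanking bases.
Pecam1 57-base exon: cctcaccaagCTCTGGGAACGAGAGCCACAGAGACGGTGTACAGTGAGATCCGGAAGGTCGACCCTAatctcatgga
Pecam1 23-base exon: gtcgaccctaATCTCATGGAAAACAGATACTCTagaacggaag
Of the gene's FPKM, WT libraries had 55.4% ± 6.76 and Gde2KO libraries 55.6% ± 1.80 (SD, n = 3) in transcripts with the 57-base exon. For the 23-base exon the shares were 28.1% ± 1.72 and 29.8% ± 6.76. The 23-base exon occurred only together with the 57-base exon in these assemblies. Transcripts with neither exon made up 37.1% to 50.1%, and the genotypes overlapped for each class.

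**Figure D3:**
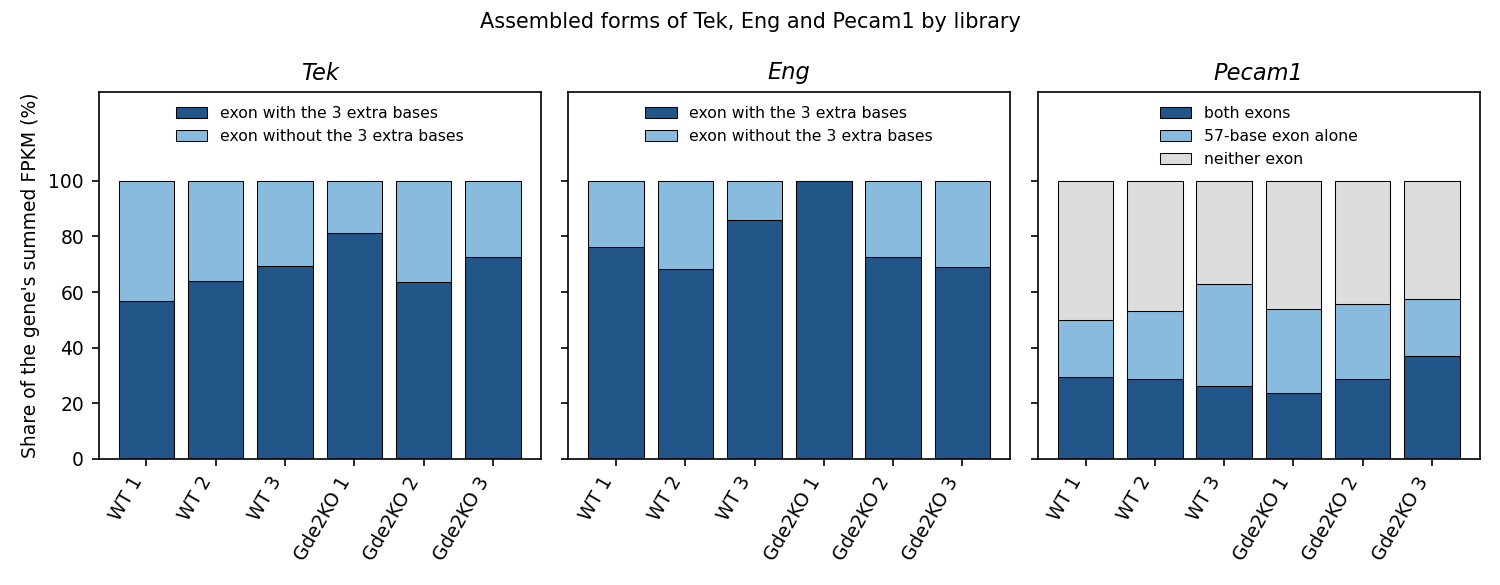
Share of a gene's deposited FPKM taken by its assembled forms in each library, in percent, for Tek, Eng and Pecam1. The long form is the larger share of Tek and Eng in all 6 libraries (56.8% to 81.3% for Tek, 68.3% to 100% for Eng), and Pecam1 is divided among transcripts with both exons, with the 57-base exon alone and with neither.

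Cldn5, the barrier's claudin, lies at chr16:18776847-18778262 on the plus strand and was assembled as 1 transcript of 1 exon in each library. Its level was 23.6, 21.1 and 17.9 FPKM in WT and 20.3, 18.4 and 19.99 FPKM in Gde2KO. The Gde2KO libraries lay within the WT range, and the ratio was 0.944 (95% interval 0.776 to 1.15). The log2 difference of -0.08 moved to 0.01 without WT replicate 1, to -0.19 without WT replicate 3 and to -0.04 without Gde2KO replicate 2, so its sign rests on a single library.

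Promoter sequences from RefSeq on GRCm38.p6, covering 250 bases before to 50 after the start, were matched for 7 of the 10 genes, Kdr, Flt1, Tek, Tie1, Cldn5, Eng and Emcn. Those of Kdr (chr5:75978406-75978705, minus strand), Eng (chr2:32646345-32646644, plus strand) and Emcn (chr3:137340828-137341127, plus strand) are shown because these are the genes that were lower in Gde2KO without overlap. Capitals mark GGAA or its reverse complement TTCC, the core bound by ETS factors such as ERG, a class of regulators used by most endothelial genes.
Kdr promoter: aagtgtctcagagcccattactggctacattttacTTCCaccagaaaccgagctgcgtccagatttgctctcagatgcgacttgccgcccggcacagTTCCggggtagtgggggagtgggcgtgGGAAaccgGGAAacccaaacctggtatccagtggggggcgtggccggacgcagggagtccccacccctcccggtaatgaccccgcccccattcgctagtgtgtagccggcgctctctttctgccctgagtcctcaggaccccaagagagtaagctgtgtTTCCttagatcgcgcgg
Eng promoter: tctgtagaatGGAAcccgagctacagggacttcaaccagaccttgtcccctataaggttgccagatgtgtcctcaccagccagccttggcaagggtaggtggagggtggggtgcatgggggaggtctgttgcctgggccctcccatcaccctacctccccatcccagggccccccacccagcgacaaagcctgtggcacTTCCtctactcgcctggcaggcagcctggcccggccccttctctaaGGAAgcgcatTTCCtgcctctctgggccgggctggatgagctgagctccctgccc
Emcn promoter: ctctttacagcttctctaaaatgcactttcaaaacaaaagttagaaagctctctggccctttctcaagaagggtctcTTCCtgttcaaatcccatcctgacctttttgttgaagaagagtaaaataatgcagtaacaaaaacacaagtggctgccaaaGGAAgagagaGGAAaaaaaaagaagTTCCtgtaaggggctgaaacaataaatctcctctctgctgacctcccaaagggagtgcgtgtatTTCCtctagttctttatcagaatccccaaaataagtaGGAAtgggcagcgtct
On both strands together, the core occurred 5 times at Kdr, 4 times at Eng and 6 times at Emcn, 4 times at Flt1, 2 times at Tek, 9 times at Tie1 and 0 times at Cldn5. It was present in 6 of the 7 promoters, and in 96.0% of all 32851 promoters of the table, where the median was 3. The SOX-type words AACAAT, found at Tek and Emcn, and ACAAAG, found at Tek and Eng, were each in 2 of 7 promoters, against 10.7% and 18.7% of all promoters. The GATA word GATAA was in 2 of 7 (25.4% of all) and TATAAA in 1 of 7, Flt1 (13.6% of all), both strands counted. At Tek the AACAAT match, read as ATTGTT, shares 2 bases with a TTCC match. These are matches of letters only, and no binding was measured.

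The ligands and co-receptors of the same pathways were described by a list of 13 genes, 10 of them tested, of which 8 were lower and 2 higher. The median of the log2 differences was -0.12, and 0 genes were past an adjusted p of 0.05 in limma, with 2 at an unadjusted p under 0.05. The share of all tested genes with such an unadjusted p was 3.91%. Lower without overlap were 3 genes of the list, beside 5.79% of all tested genes. Vegfa, the main ligand of KDR and FLT1, had 11.7, 13.2 and 11.9 FPKM in WT and 12.3, 12.2 and 9.56 FPKM in Gde2KO, with overlap. The FLT1 ligands Vegfb and Pgf and the TEK agonist Angpt1 overlapped as well. Vegfc, a ligand of FLT4 and KDR, had 1.32, 1.45 and 0.896 FPKM in WT and 0.678, 0.837 and 0.814 FPKM in Gde2KO, without overlap. It stood at the 0.0233 percentile of tested genes, with means of 1.22 FPKM in WT and 0.7765 FPKM in Gde2KO. It met the filter of mean FPKM 1 only through WT, so nothing is read from its difference or its unadjusted p of 0.0463 in limma. Nrp1, the neuropilin that joins KDR, had 7.28, 5.48 and 5.22 FPKM in WT and 5.15, 4.80 and 5.01 FPKM in Gde2KO, also without overlap. Ptprb, the phosphatase that acts on TEK, had 6.64, 6.01 and 6.60 FPKM in WT and 5.35, 5.67 and 5.88 FPKM in Gde2KO, without overlap. Angpt2 stood below the level for testing, at 0.643 to 0.931 FPKM in WT and 0.351 to 0.649 FPKM in Gde2KO.

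In the list of 22 endothelial transcription factors, 15 were tested, 13 were lower and 2 higher, with a median of -0.15. In limma 0 were past the threshold and 2 had an unadjusted p under 0.05, beside 3.91% of all tested genes. Klf2, Ets2 and Hey1 were the 3 lower without overlap, beside 5.79% of all tested genes. Klf2, a factor induced by blood flow, had 9.77, 9.06 and 7.83 FPKM in WT and 6.68, 7.75 and 4.72 FPKM in Gde2KO, without overlap. The ETS gene Elk3 had 2.70, 2.70 and 2.37 FPKM in WT and 1.78, 2.39 and 2.03 FPKM in Gde2KO, with overlap. Erg overlapped too, at 2.56 to 3.31 FPKM in WT and 2.51 to 2.74 FPKM in Gde2KO.

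Of 38 endothelial surface and junction genes 36 were tested, with 26 lower, 10 higher and a median of -0.07. Without overlap 3 were lower and 2 higher, beside 5.79% and 5.06% of all tested genes. Cdh5, the cadherin of endothelial junctions, had 7.85, 6.40 and 6.33 FPKM in WT and 6.30, 6.11 and 4.98 FPKM in Gde2KO, without overlap by a gap between WT replicate 3 and Gde2KO replicate 1. Acvrl1, the signalling receptor that pairs with endoglin, had 4.71, 4.46 and 4.64 FPKM in WT and 3.75, 3.94 and 4.30 FPKM in Gde2KO. Nostrin, which binds endothelial nitric oxide synthase, was higher in Gde2KO, at 1.87, 2.095 and 1.87 FPKM in WT and 2.999, 2.33 and 2.40 FPKM in Gde2KO. Both were without overlap. Ly6c1, a surface protein of mouse endothelium, was also higher without overlap, at 27.4, 51.4 and 48.8 FPKM in WT and 54.5, 53.3 and 52.3 FPKM in Gde2KO.

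Blood-brain barrier transport genes had 17 lower and 8 higher of 25, with a median of -0.04. Without overlap 3 were higher and 2 lower, beside 5.06% and 5.79% of all tested genes. The higher ones are named after their values were seen. Slc2a1, the glucose transporter of barrier endothelium, had 70.6, 88.02 and 85.01 FPKM in WT and 100.1, 97.7 and 88.2 FPKM in Gde2KO. Mfsd2a, the lysolipid transporter of the barrier, had 22.2, 35.1 and 38.6 FPKM in WT and 40.2, 41.9 and 47.9 FPKM in Gde2KO. Slc7a5, an amino acid transporter, had 26.8, 30.8 and 32.9 FPKM in WT and 33.8, 33.5 and 35.2 FPKM in Gde2KO. WT replicate 1 was the lowest library for all 3 and for Ly6c1. The lower ones were the lactate transporter Slc16a1, with 22.1, 23.1 and 23.6 FPKM in WT and 20.04, 21.1 and 20.7 FPKM in Gde2KO, and the phospholipid transfer protein gene Pltp, with 52.1, 45.2 and 48.1 FPKM in WT and 44.3, 42.8 and 40.5 FPKM in Gde2KO. Slc38a5 was lower on average with overlap, at 6.515, 4.88 and 3.61 FPKM in WT and 3.70, 3.21 and 2.87 FPKM in Gde2KO. In the arterial, tip cell and Notch list 12 of 17 tested genes were lower, with a median of -0.17, and 2 were lower and 1 higher without overlap. Notch1 was lower, at 5.51, 5.06 and 4.77 FPKM in WT and 4.53, 4.69 and 3.82 FPKM in Gde2KO. Hey1 was lower too, at 20.4, 19.55 and 21.75 FPKM in WT and 18.4, 18.95 and 19.46 FPKM in Gde2KO. The higher gene was Hes1, a Notch target also expressed by neural cells, at 2.75, 2.15 and 2.41 FPKM in WT and 3.41, 3.69 and 4.11 FPKM in Gde2KO. Its adjusted p was 0.789, and 0 genes of these 3 lists passed the threshold in limma. For Notch1 and Hey1 as for Hes1, the cells that gave the RNA cannot be told apart in bulk tissue. At an unadjusted p under 0.05 there were 3 surface, 2 transport and 1 arterial list genes, beside 3.91% of all tested genes.

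**Figure D4:**
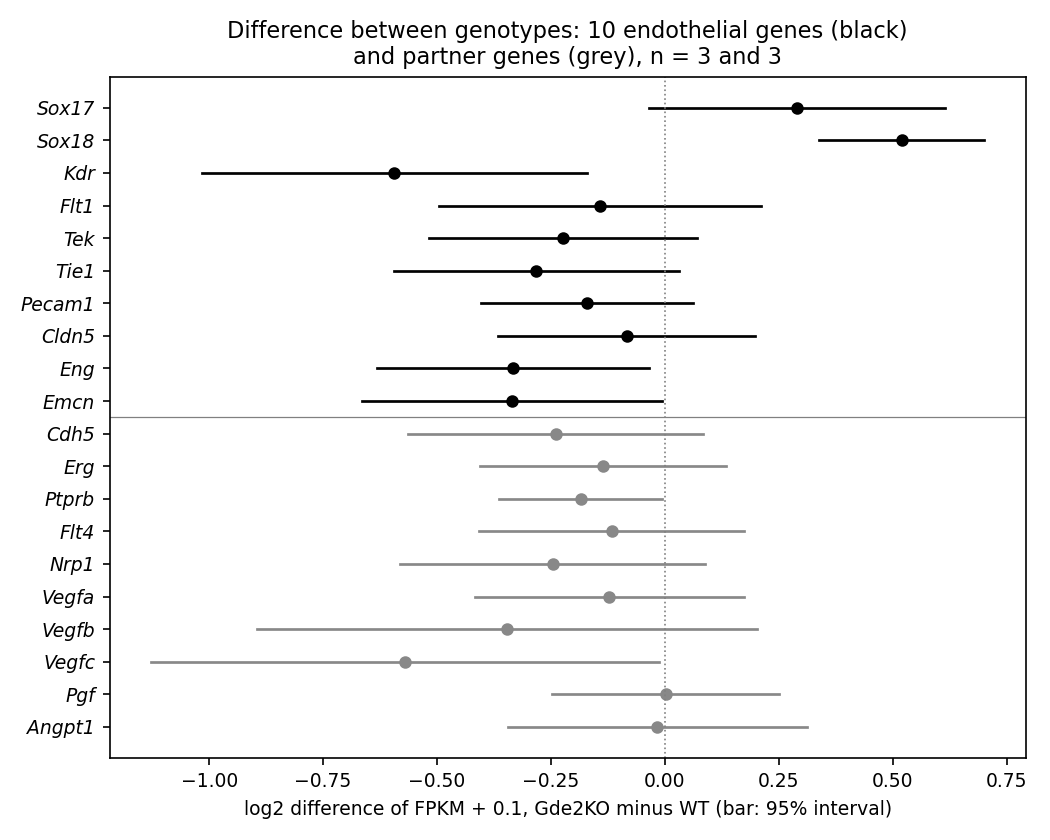
Log2 difference, Gde2KO minus WT, with its 95% interval from the limma fit for the 10 genes (black) and for partner genes of the same pathways (grey). Sox18 (0.52) and Kdr (-0.59) are the ends of the 10 genes, and intervals of Flt1, Tek, Tie1, Pecam1, Cldn5 and Sox17 include 0.

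Markers of other cells that sit on or near vessels were measured beside these genes. In the mural cell list, which marks pericytes and smooth muscle, 8 of 16 tested genes were lower and 8 higher, with a median of 0.00 and a summed level of 136 to 155 FPKM in WT and 130 to 139 FPKM in Gde2KO. Within it, 3 genes were lower without overlap, and 3 had an unadjusted p under 0.05 in limma. Of all tested genes, 5.79% were lower without overlap and 3.91% had such a p. The same shares stand beside the counts of the fibroblast, lymphatic and blood lists below. Vtn had 49.1, 43.2 and 44.8 FPKM in WT and 38.8, 38.2 and 34.3 FPKM in Gde2KO. Pdgfrb had 6.50, 6.10 and 6.46 FPKM in WT and 5.08, 5.54 and 3.56 FPKM in Gde2KO. Ndufa4l2 had 4.95, 4.22 and 3.71 FPKM in WT and 3.67, 3.175 and 2.55 FPKM in Gde2KO. All 3 were without overlap, while the pericyte gene Rgs5 overlapped at 29.3 to 33.1 and 30.01 to 32.1 FPKM. Of the meningeal and perivascular fibroblast list 11 of 12 tested genes were lower, with a median of -0.37. Gde2KO replicate 1 was the lowest library for 9 of the 12, and without it 8 were lower and 4 higher, with a median of -0.02. The summed level, 775 to 1242 FPKM in WT and 740 to 1118 FPKM in Gde2KO, is mostly Ptgds. The other tested genes summed to 115, 102 and 129 FPKM in WT and 58.2, 110 and 117 FPKM in Gde2KO. The collagen Col1a1 had 15.1, 15.2 and 17.8 FPKM in WT and 4.88, 12.9 and 18.1 FPKM in Gde2KO, lowest in replicate 1. The 3 genes of this list lower without overlap were Slc6a13, Aldh1a2 and Fn1, and 2 genes had an unadjusted p under 0.05 in limma. Slc6a13 had 3.21, 2.50 and 3.23 FPKM in WT and 1.19, 2.15 and 2.12 FPKM in Gde2KO. Aldh1a2 had 2.74, 1.775 and 2.76 FPKM in WT and 0.98, 1.73 and 1.51 FPKM in Gde2KO. Fn1 had 13.8, 11.6 and 10.3 FPKM in WT and 9.81, 10.2 and 9.01 FPKM in Gde2KO. Among lymphatic and blood markers, 4 of 8 tested genes were lower, 2 of them without overlap, and 1 gene had an unadjusted p under 0.05 in limma. That gene was Prox1, with 6.17, 5.73 and 5.72 FPKM in WT and 4.99, 5.30 and 4.04 FPKM in Gde2KO, without overlap. The lymphatic gene Lyve1 stood far below Prox1, at 0.216 to 1.11 FPKM, and the platelet gene Pf4 at 1.17 to 1.52 FPKM. Which cells of the cord gave the Prox1 RNA was not tested, so its values are not read as lymphatic. Hbb-bs, the red cell globin, had 196, 144 and 109 FPKM in WT and 110, 140 and 128 FPKM in Gde2KO. It was highest in WT replicate 1, which was also the highest WT library for Sox18, Kdr, Flt1, Tie1, Pecam1, Cldn5 and Emcn. For Sox18 the WT libraries differed little, at 4.46, 4.33 and 4.32 FPKM. WT replicate 1 was the lowest WT library for Eng and Sox17, and for Tek it lay below WT replicate 2. The part of these cells and of blood in the levels of the 10 genes was not tested.

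The genes whose profile over the 6 libraries was most like that of the 10 genes together were found by Pearson's r to the mean of their centred log2 levels. They were Lrrn2 (r = 0.998), Ocln (0.997), Zfp521 (0.995), Tmem173 (0.993) and Celf6 (0.991). Of 12894 tested genes 70 reached 0.95 over these 6 libraries, which share genotype, depth and assembly differences, so the likeness is a description. The mean blends genes that ran against each other. Sox17 and Sox18 had r from -0.0211 (Sox17 and Flt1) to -0.738 (Sox18 and Kdr) with the other members. Likeness to the mean is therefore not likeness to each of the 10 genes. Ocln, which encodes the tight junction protein occludin, had 3.03, 2.80 and 2.79 FPKM in WT and 2.88, 2.64 and 2.45 FPKM in Gde2KO, with overlap.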

How the data were processed

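Per the labels' protocols, poly-adenylated RNA was sequenced. Per the submitters' processing notes, FastQC, TopHat2 2.1.1, Cufflinks 2.2.1 and Cuffdiff 2.2.1 were used with mm10. The deposited files hold each library's own Cufflinks assembly with FPKM and confidence bounds made by the authors. They name no reference gene and give no read counts, so sequencing depth is unknown. Relative depth was taken from the ratio of deposited coverage to FPKM.

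Transcripts were matched to GENCODE vM21 (GRCm38) wherever exons overlapped with equal strand. Transcripts without a strand, 13.1% to 14.1% of each library, were added at bases with no annotated exon on the other strand. Transcripts of at least 200 exonic bases were used, and counted bases belonged to 1 gene and were assembled in at least 3 of 6 libraries. Genes with 200 or more counted bases and mean FPKM 1 or higher were fitted with limma 3.58.1 in R 4.3.3 (trend, robust) on log2(FPKM + 0.1) after median-of-ratios scaling, two-sided, with Benjamini-Hochberg adjustment. The pseudocount understates differences of low genes. Exact tests were not made for genes, since with 3 against 3 libraries the smallest p is 0.1.

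The 10 genes and all gene lists were chosen with earlier results of these data known. Some genes count in more than 1 list. Ptprb is in the ligand and surface lists, Hey1 in the factor and arterial lists, and Ptgds in the transport and fibroblast lists. Named genes are the 10 members, Gdpd5, the 3 tested genes of smallest p of a list where named, fixed partners and cell type markers, and the 5 genes most like the members' mean profile. Ly6c1, Slc2a1, Mfsd2a, Slc7a5 and Hey1 fall outside this rule. They were named after their values were seen, because their groups did not overlap. Other pseudocounts, filters, scalings, ways to sum transcripts, a replicate block and leaving out each library were tried.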

Additional observations from a re-analysis of the deposited data

How the results depend on the processing

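Across 18 alternatives 0 of the 10 genes passed the threshold in limma. The sign of each of the 10 differences was kept in every alternative that tested the gene, except that Cldn5 was 0.0085 without WT replicate 1 (-0.19 to 0.0085 when each library was left out). The median over the 10 genes ran from -0.27 to -0.11 when each library was left out. Among all genes, 15 were called, against 4 with a pseudocount of 0.01, 1 when mean FPKM had to reach 5 and 10 to 26 when a library was left out (26 without WT replicate 2, 25 without Gde2KO replicate 2 and 25 without Gde2KO replicate 3). Over bases assembled in all 6 libraries, an alternative chosen after seeing the data, 4 were called. The meningeal list without Gde2KO replicate 1 or without Ptgds, and the Flt1 intron per assembled base, were also added after seeing the data. The cause of the shifts was not tested. With the replicate number as a block, 2 genes were called. Same-numbered libraries had correlations of deviations of 0.0107, 0.0357 and -0.0671, which show no strong shared deviation. These values cannot tell whether the numbers pair the libraries, and no label states a pairing. Low genes such as Sox17 are limited by depth, which the files do not give.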
